A study of Mus musculus with 6 samples.

Results

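In the quadriceps femoris of mice with and without Prr14, 194 of the 75134 deposited ATAC-seq peaks were annotated to an olfactory or vomeronasal receptor gene. They are the peaks on chromosomes 1 to 19 whose annotated gene has a name that starts with Olfr (odorant receptors, 135 peaks of 89 genes) or with Vmn1r or Vmn2r (vomeronasal receptors of type 1, 30 peaks of 16 genes, and type 2, 29 peaks of 19 genes). The annotation of the deposited table gives each peak its nearest gene, so membership is by nearness and does not mean that a peak lies in a receptor gene. Of the 194 peaks, 176 had enough counts to be tested and 18 did not, with no library above 29 counts in any of those 18.

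ATAC-seq measures how open chromatin is by letting the transposase Tn5 insert sequencing adapters into accessible DNA. Nuclei came from frozen muscle of the quadriceps femoris, the large extensor of the thigh, and there were 3 libraries of the genotype Prr14-WT (WT, replicates 3, 4 and 8) and 3 of Prr14-KO (KO, replicates 4, 5 and 7). Neither group was given a treatment in the labels. The sources used here give no age, sex, strain or deleted stretch of Prr14, nor whether the deletion was limited to muscle. Whether the 3 libraries of a group are 3 animals is not in the labels, so p-values reflect the variation among these libraries alone, some of which may be technical.

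Odorant and vomeronasal receptors are G-protein-coupled receptors that detect odours and pheromones. They form some of the largest gene families of the mouse, lie in clusters of similar copies, and each sensory neuron of the nose transcribes very few of them, in the main olfactory epithelium a single allele of a single gene. In other tissues the clusters are mostly silent and packed in heterochromatin. PRR14 is a protein of the nuclear lamina known to attach heterochromatin to the nuclear edge through HP1 proteins.

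Few receptor peaks lay over a promoter, and of these 1 promoter of a receptor and 1 of another gene are printed. A RefSeq promoter was taken as the 300 bases from 250 before to 50 after a gene's start, on build GRCm38.p6. The first, Olfr12 (an odorant receptor gene), at chr1:92619631-92619930 on the plus strand, was the 1 receptor promoter of the RefSeq table that a peak annotated to its own gene overlapped. The second, at chr3:64948962-64949261 on the plus strand, is that of Kcnab1, a beta subunit of voltage-gated potassium channels, and was overlapped by a peak that the table annotates to Vmn2r7. Each is printed 5′ to 3′ on its own strand, from RefSeq, with CpG dinucleotides, the sites of DNA methylation in mammals, in capitals.
Olfr12: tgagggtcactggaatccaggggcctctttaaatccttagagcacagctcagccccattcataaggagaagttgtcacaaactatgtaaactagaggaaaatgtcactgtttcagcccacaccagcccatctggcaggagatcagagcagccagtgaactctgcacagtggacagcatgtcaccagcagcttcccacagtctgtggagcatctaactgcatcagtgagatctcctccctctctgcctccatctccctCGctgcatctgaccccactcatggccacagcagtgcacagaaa
Kcnab1: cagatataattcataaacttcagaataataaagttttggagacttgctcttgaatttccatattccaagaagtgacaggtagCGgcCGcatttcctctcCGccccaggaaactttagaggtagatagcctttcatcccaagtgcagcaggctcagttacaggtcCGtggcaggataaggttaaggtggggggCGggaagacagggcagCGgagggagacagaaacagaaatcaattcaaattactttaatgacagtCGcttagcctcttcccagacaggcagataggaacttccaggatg
The Olfr12 promoter held 1 CpG in 300 bases at 52.3% GC, and the Kcnab1 promoter held 7 at 46.7% GC. Over 1272 receptor promoters in RefSeq, the median was 1 CpG and 35.7% GC, against 8 CpG and 53.3% GC over 31579 other promoters. No CpG at all was found in 31.0% of receptor promoters and in 4.40% of other promoters. The motif TAATTA, a homeodomain core of the kind bound by Lhx2 and Emx2, was found on either strand in 16.6% of receptor promoters and in 5.29% of all 32851 promoters. The motif TATAAA, the TATA box, was found on either strand in 39.5% of receptor promoters and in 13.6% of all. Both motifs hold only A and T, and these shares were not adjusted for the lower GC of receptor promoters. Neither motif was in the Olfr12 or the Kcnab1 window, and a match is a description of letters, not a binding site.

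Peaks inside receptor genes were rare. Of 1458 receptor coding genes in RefSeq, 12 (0.823%) had a peak of any annotation inside the gene and 100 (6.86%) had one in the gene or within 10 kb of it. Among 1104 Olfr genes, 8 (0.725%) had a peak inside and 83 (7.52%) within 10 kb. Among 231 Vmn1r genes, 1 (0.433%) had a peak inside and 8 (3.46%) within 10 kb, and among 123 Vmn2r genes, 3 (2.44%) and 9 (7.32%). A class matched by the start of the name to other clustered families (defensins, keratin-associated proteins, Skint, Mup, Klra, Scgb, Cyp2 and Ugt2) had a peak inside 26 of 281 genes (9.25%). The letters Cyp2 also took in 8 genes outside the Cyp2 family, 5 of them with a peak, and without these the share was 21 of 273 (7.69%). Zinc finger genes of the Zfp name, which also lie in clusters, had one inside 345 of 391 genes (88.2%), and the 18475 remaining coding genes had one inside 76.2%. The share of receptor genes was thus lower than in each of these classes, but the genes also differ in length, which was not adjusted for.

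**Figure D1:**
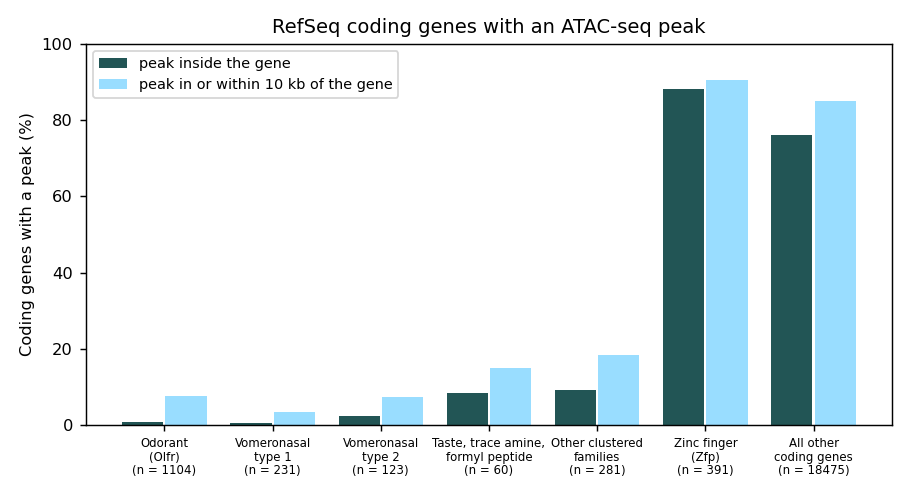
Share of RefSeq coding genes (vertical axis, percent) with an ATAC-seq peak inside the gene (dark bars) or in or within 10 kb of it (light bars), for 7 classes of genes with the number of genes under each. The 3 receptor families lie between 0.433% and 2.44% for peaks inside the gene, against 88.2% for Zfp genes.

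Receptor peaks were also weaker, narrower and more often intergenic than peaks in general. Accessibility is given as CPM, the raw count of a peak per 1000000 counts in peaks of its library after TMM scaling. The mean over the 6 libraries ran from 1.02 to 146.6 CPM, with a median of 2.98 CPM over the 176 tested receptor peaks against 6.24 CPM over all 73896 tested peaks, and 119 were under 5 CPM. Median width was 516.5 bases against 743 bases over all. The deposited table calls 75.6% of the tested receptor peaks intergenic, against 31.7% of all, and 7.95% lay within 1 kb of the annotated start, against 18.3%. Against RefSeq, 148 of the 194 peaks overlapped no gene, 14 overlapped a receptor gene, 15 another coding gene and 17 another kind of RefSeq gene. For 38 of the 194, a coding gene that is no receptor lay nearer than any receptor gene.

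Depth and tissue were checked over the whole table. Total counts in peaks ran from 7608514 (WT replicate 8) to 12061822 (KO replicate 5), and the biological coefficient of variation was 0.201. All 5 muscle fibre markers had promoter peaks, with a summed level of 651 to 1062 CPM in WT and 697 to 722 CPM in KO. Of their 8 promoter peaks, 3 were lower in KO. Among autosomal promoter peaks outside the receptor list, 1.59% were called higher and 1.48% lower. No difference from these shares was tested for any marker. Of 4 olfactory neuron markers, Omp, Gng13 and Cnga4 had no tested promoter peak, and the 1 promoter peak of Rtp1 lay at 5.40 to 11.4 CPM in WT and 5.54 to 11.3 CPM in KO. None of the promoter peaks of the endothelial, macrophage, fibro-adipogenic, Schwann cell, smooth muscle and adipocyte markers was called. In a bulk sample, fewer cells of a type and less signal per cell cannot be told apart.

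Comparing KO with WT asks whether loss of Prr14 goes with a change of accessibility near these silent gene families. Of the 176 tested receptor peaks, 2 rose and 6 fell in KO at an adjusted p under 0.05 in edgeR's quasi-likelihood test, and 168 did not pass. The calls are 1.14% higher and 3.41% lower, beside 2.77% higher (2049 peaks) and 4.23% lower (3128 peaks) of all 73896 peaks tested. Both peaks that rose stand beside the odorant receptor gene Olfr1331. Of the 6 that fell, 3 were annotated to Olfr1505, 2 to Vmn2r7 and 1 to the pseudogene Olfr1077-ps1, and 5 of these 6 lay over 100 kb from the RefSeq span of the receptor gene in whose name they stand.

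Since receptor peaks are weak and few lie at start sites, they were set beside 64207 other autosomal peaks, weighted to the same mix of distance from a start site and mean level. Of those, 1.94% were called higher and 3.64% lower, which for 176 peaks comes to 3.42 and 6.41 peaks. The receptor counts were 2 and 6, and no test of the difference was made. The distance between the lower counts depended on the setting: 7 receptor peaks were lower without WT replicate 4, where the like peaks come to 3.07, and 3 with the authors' factors, where they come to 1.43, while 4 were lower without WT replicate 8, where they come to 6.61. WT and KO libraries did not overlap in CPM for 9 receptor peaks that were higher and 17 that were lower in KO, 14.8% of those tested against 20.3% of all peaks. A further measure of weak differences, an unadjusted p under 0.05, was met by 23 of the 176. The share of all peaks that met it was not worked out. No excess can therefore be read from this count, or from those given by this measure for smaller groups below.

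In the authors' deposited table, 122 receptor peaks have an adjusted p, of which 2 are higher and 2 lower in KO at 0.05. Over all 66394 peaks with an adjusted p in the authors' deposited table, 2.44% are higher and 0.872% lower, so the table has more higher than lower calls where the edgeR fit has more lower ones. The 4 receptor calls in the authors' deposited table are both Olfr1331 peaks, 1 of the Olfr1505 peaks and 1 of the Vmn2r7 peaks, all with the same direction as in the edgeR fit. Scaling with the authors' library factors in the edgeR fit left 2 receptor peaks higher and 3 lower. These factors ran from 0.977 to 1.035 over the libraries (1.06 times), while total counts in peaks differed by 1.59 times. They thus take out little of the difference in depth.

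**Figure D2:**
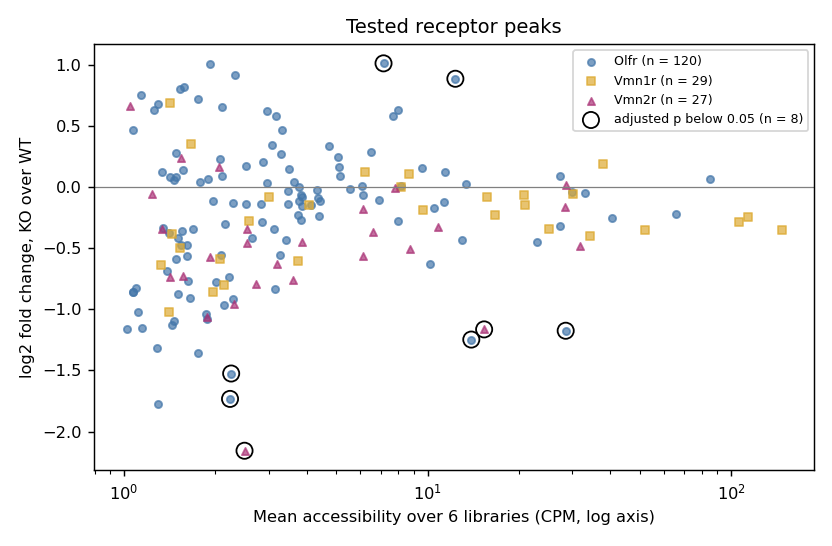
Each point is one of the 176 tested receptor peaks, by its mean level over 6 libraries (horizontal log axis, CPM) and its log2 fold change of KO over WT (vertical axis), with Olfr, Vmn1r and Vmn2r peaks in their own symbols. The 8 circled peaks passed the test, and most points lie under 5 CPM, where folds scatter most.

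Olfr1331 (ENSMUSG00000073769), on chromosome 4, codes for an odorant receptor, and both of its peaks were more open in KO. The deposited table puts 1 peak 2118 bases upstream of an annotated start (118861966 to 118863096, class promoter). This peak had 7.20, 8.37 and 10.5 CPM in WT replicates 3, 4 and 8 and 13.6, 16.03 and 18.3 CPM in KO replicates 4, 5 and 7. All KO libraries were above all WT libraries. It rose from 8.70 ± 1.69 to 15.98 ± 2.36 CPM (SD, n = 3 each), which is 0.89 on the log2 scale (SE 0.22, adjusted p = 0.00261, edgeR quasi-likelihood). The call was kept in all 14 alternative settings.

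The Olfr1331 peak 709 bases upstream of the start (118867680 to 118868467) had 4.32, 5.71 and 4.08 CPM in WT and 11.8, 6.58 and 10.4 CPM in KO. The groups again did not overlap, with KO replicate 5 nearest to WT. It rose from 4.70 ± 0.877 to 9.61 ± 2.72 CPM, which is 1.01 on the log2 scale (SE 0.26, adjusted p = 0.00365, edgeR). Without KO replicate 4 the call was lost (0.84, adjusted p = 0.0934). RefSeq places the nearer peak 316 bases and the farther one 5687 bases from the Olfr1331 gene, with the nearest coding gene that is no receptor, Lao1 (an L-amino acid oxidase), at least 93500 bases away. The deposited distances of 709 and 2118 bases are thus not from the same start, and the farther peak lies over 3 kb from the RefSeq gene. Peaks of its neighbours in the cluster did not pass the test. Olfr1330, 308 bases from the start in the deposited table but 3993 bases outside the RefSeq gene, had a log2 fold change of 0.75 (adjusted p = 0.664), Olfr1337 0.34 (adjusted p = 0.669) and Olfr62 -0.68 (adjusted p = 0.677).

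Olfr1505 (ENSMUSG00000062314) is the odorant receptor gene nearest to a run of distal peaks on chromosome 19, all downstream of it on the side of Tle4, which codes for a transcriptional corepressor of the Groucho family. Of its 7 tested peaks, 3 fell in KO. The strongest, 306977 bases from the start (14224887 to 14226950), had 35.7, 56.7 and 25.8 CPM in WT and 22.8, 15.04 and 14.9 CPM in KO. The lowest WT library, replicate 8, stood just above the highest KO library, replicate 4. It fell from 39.4 ± 15.8 to 17.6 ± 4.51 CPM, which is -1.18 on the log2 scale (SE 0.19, adjusted p = 2.27e-07, edgeR). DESeq2 did not call it (adjusted p = 0.0602), nor did the authors' deposited table (adjusted p = 0.0634). In RefSeq, Tle4 lay 221122 bases and Olfr1505 304915 bases away from it.

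The Olfr1505 peak 209586 bases from the start (14127920 to 14129136) had 18.1, 24.9 and 15.7 CPM in WT and 8.68, 8.47 and 7.69 CPM in KO. Every KO library was well under every WT library. It fell from 19.6 ± 4.81 to 8.28 ± 0.520 CPM, which is -1.25 on the log2 scale (SE 0.22, adjusted p = 1.78e-06, edgeR), and kept its call in all 14 alternative settings. A weak peak at 169629 bases (14088410 to 14088731) had 2.26, 4.32 and 3.42 CPM in WT and 1.57, 0.658 and 1.28 CPM in KO. Its groups did not overlap and its log2 fold change was -1.52 (SE 0.50, adjusted p = 0.0374, edgeR), but the call was lost in 7 of 14 alternatives. Those 7 were total-count scaling (adjusted p = 0.0576), the authors' factors (0.124), the authors' deposited table (0.115) and fits lacking 1 library, which was WT replicate 4 (0.256) or 8 (0.108), or KO replicate 5 (0.281) or 7 (0.0755). The 4 remaining Olfr1505 peaks did not pass and differed in sign, with log2 fold changes of -0.96 at 198248 bases (adjusted p = 0.317), 0.08 at 223048 (0.973), 1.01 at 247077 (0.336) and -0.32 at 321952 (0.411).

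Vmn2r7 (ENSMUSG00000062200) codes for a type 2 vomeronasal receptor on chromosome 3, and its 6 tested peaks lay upstream, toward and inside Kcnab1. The peak 120769 bases from the start (64965036 to 64966031), inside the span of Kcnab1, had 24.8, 23.8 and 15.01 CPM in WT and 8.47, 10.2 and 9.80 CPM in KO. All KO libraries were lower than WT replicate 8, the lowest WT library. It fell from 21.2 ± 5.40 to 9.49 ± 0.903 CPM, which is -1.16 on the log2 scale (SE 0.21, adjusted p = 5.92e-06, edgeR). The call was lost with the authors' factors (adjusted p = 0.0528) and in the authors' deposited table (adjusted p = 0.0669).

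The Vmn2r7 peak 70989 bases from the start (64915589 to 64915919) had 5.14, 4.78 and 2.24 CPM in WT and 1.25, 0.164 and 1.37 CPM in KO. KO replicate 5 was nearly without signal there, and no KO library reached the lowest WT library. It fell from 4.06 ± 1.58 to 0.931 ± 0.666 CPM, which is -2.16 on the log2 scale (SE 0.48, adjusted p = 0.000435, edgeR), the lowest of all tested receptor peaks, and kept its call in all 13 alternatives that gave a value. In RefSeq it lay 195987 bases from Vmn2r7, farther than the deposited distance, 15830 bases from the pseudogene Vmn2r-ps13 and 33293 bases from Kcnab1. The peak over the Kcnab1 promoter printed above, 104528 bases from the Vmn2r7 start, did not pass (log2 fold change -0.63, adjusted p = 0.420). The other 3 Vmn2r7 peaks had -0.58 (adjusted p = 0.687), 0.17 (0.931) and -0.45 (0.578).

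Olfr1077-ps1 (ENSMUSG00000111678) is an odorant receptor pseudogene in the large receptor cluster of chromosome 2, and it had 1 tested peak, 4420 bases upstream (86532494 to 86533200). That peak had 4.53, 1.84 and 3.95 CPM in WT and 1.57, 1.15 and 0.366 CPM in KO. WT replicate 4 lay close to KO replicate 4, and the groups did not overlap. It fell from 3.44 ± 1.41 to 1.03 ± 0.610 CPM, which is -1.73 on the log2 scale (SE 0.52, adjusted p = 0.0159, edgeR). The call was lost in 6 of 14 alternatives, namely with the authors' factors (adjusted p = 0.0775), in the authors' deposited table (0.0863) and in fits lacking WT replicate 3 (0.199) or 8 (0.0945), or KO replicate 5 (0.0601) or 7 (0.155). Of the 6 peaks that fell, it alone lay within 10 kb of its annotated receptor gene.

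**Figure D3:**
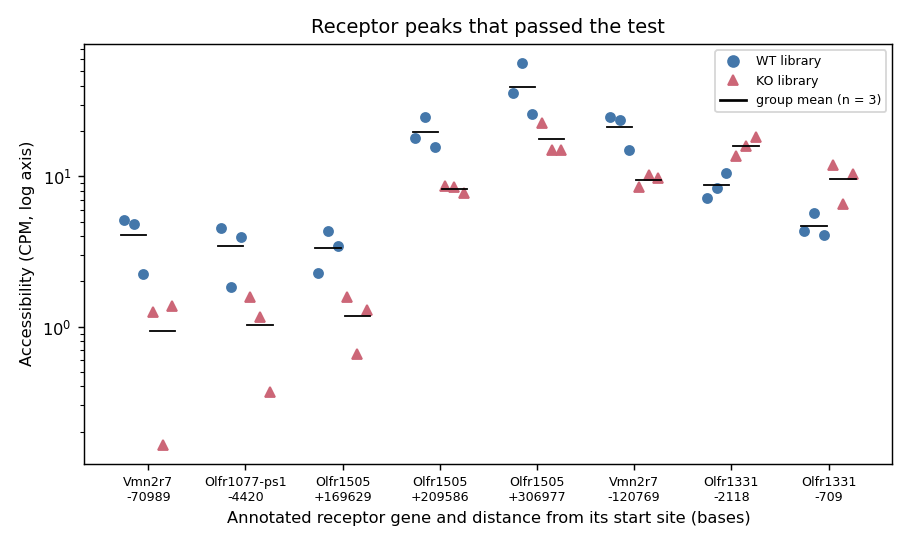
Level of the 8 receptor peaks that passed the test in each library (vertical log axis, CPM), with WT libraries as circles, KO libraries as triangles and lines at the group means (n = 3). In each peak the groups do not overlap, higher in KO at Olfr1331 and lower in KO at the other 6.

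By family, Olfr peaks held 6 of the 8 calls, 2 higher and 4 lower of 120 tested, with a median log2 fold change of -0.12. Vmn2r peaks held the other 2, both lower, of 27 tested, with a median of -0.46. None of the 29 tested Vmn1r peaks was called by edgeR, DESeq2 or limma-voom, 3 had an unadjusted p under 0.05, and their median was -0.25. Beside these stand a median of -0.01 over all tested peaks and calls of 2.77% higher and 4.23% lower. Both Vmn2r calls were annotated to Vmn2r7, and no difference of a family from all peaks was tested. With the authors' factors the medians were 0.09 for Olfr, -0.02 for Vmn1r and -0.23 for Vmn2r, against 0.19 over all peaks. The sign for Olfr thus depends on the scaling, but these factors differ by only 1.06 times between libraries, against 1.59 times for total counts.

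The peaks that rose lay near the annotated start and 5 of the 6 that fell lay 50 kb or farther from it. Other autosomal peaks also had more lower calls far from a start, 0.831% under 1 kb and 7.61% at 200 kb and over, so this is no trait of receptor peaks alone. The 2 peaks that rose were among the 29 tested peaks within 3 kb of the annotated start (14 within 1 kb, median log2 fold change 0.11, and 15 at 1 to 3 kb, median -0.16). RefSeq, though, places 1 of these 2 at 5687 bases from the Olfr1331 gene. Of the 39 at 3 to 10 kb, 1 fell, beside 4.07% of other peaks. Of the 61 at 10 to 50 kb none was called, beside 7.93% of other peaks, and 4 had an unadjusted p under 0.05. Of the 32 at 50 to 200 kb, 3 fell (median -0.35), beside 5.88% of other peaks, and of the 15 farther out, 2 fell (median -0.22). Within 3 kb, 1.45% of other peaks rose. All 6 that fell were of the intergenic class, which held 133 of the 176 tested. Of the 12 tested peaks that overlap a receptor gene itself, edgeR, DESeq2 and limma-voom called 0, and 1 had an unadjusted p under 0.05. Since edgeR called 2.77% of all tested peaks higher and 4.23% lower, no difference can be read from 12 peaks.

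The most open peaks within 1 kb of an annotated receptor start were, beside the Olfr1331 peak, those of Vmn1r4 and Olfr71, and neither passed the test. Vmn1r4 (ENSMUSG00000071893), a type 1 vomeronasal receptor on chromosome 6, had a peak 136 bases from its start (56923639 to 56924677) that also overlapped Nt5c3, a pyrimidine nucleotidase. It had 36.2, 37.7 and 31.7 CPM in WT and 32.9, 42.8 and 44.7 CPM in KO, overlapping groups (log2 fold change 0.19, SE 0.18, adjusted p = 0.697). Olfr71 (ENSMUSG00000046450), an odorant receptor on chromosome 4, had 13.1, 14.2 and 9.87 CPM in WT and 9.51, 7.40 and 7.23 CPM in KO at a peak 617 bases from its deposited start. RefSeq places this peak 2318 bases outside the gene. Its groups did not overlap, but it did not pass (-0.63, SE 0.23, adjusted p = 0.0777). Olfr12, whose promoter is printed above, had 1.23, 1.75 and 1.84 CPM in WT and 2.51, 3.45 and 3.11 CPM in KO. Those groups did not overlap either (0.92, SE 0.47, adjusted p = 0.307).

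Some odorant receptors are known to be expressed outside the nose. Of 8 such genes listed, among them Olfr16 (MOR23, reported in muscle) and Olfr78, Olfr90 alone had a tested receptor peak, 6036 bases from its start on chromosome 17 (37079997 to 37080403). It had 2.37, 2.02 and 5.66 CPM in WT and 3.24, 2.55 and 5.13 CPM in KO. The groups overlapped, with the highest library in WT, and the difference of 0.15 on the log2 scale (SE 0.37, adjusted p = 0.908) turned negative in 3 of 6 fits that left out a library.

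The strongest receptor peaks lay close to where the sequence of a chromosome begins, and the raw counts of some differed little between libraries. Vmn1r2 (ENSMUSG00000115072), a type 1 vomeronasal receptor near the start of chromosome 4, had the 2 highest. Its peak 76772 bases upstream (3089596 to 3091500) held 1447, 1369 and 1657 raw counts in WT and 1450, 1328 and 1377 in KO, and the log2 fold change was -0.35 (SE 0.17, adjusted p = 0.267). Its peak 84526 bases upstream (3081275 to 3084313) held 1070, 1151 and 1164 raw counts in WT and 1121, 1126 and 1105 in KO, with -0.25 (adjusted p = 0.525). The raw counts of this peak differed by 1.09 times between the highest and the lowest library, while the libraries' totals in peaks differed by 1.59 times. With the authors' factors the same 2 peaks had log2 fold changes of -0.12 and -0.02. Without WT replicate 8 they had -0.044 and -0.011. The peak next in level, 113841 bases from Vmn1r238 on chromosome 18, was less even, with 1019, 912 and 1232 raw counts in WT and 1128, 1071 and 891 in KO, 1.38 times between highest and lowest. Its log2 fold change was -0.29 (adjusted p = 0.425).

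In all, 25 receptor peaks of 4 genes (a group chosen after their values were seen) began before 3.5 Mb of a chromosome's sequence, and all were tested. Over all tested peaks, edgeR called 2.77% higher and 4.23% lower. Of these 25 peaks, edgeR, DESeq2 and limma-voom called none, too few peaks to read a difference from. Of the same 25, 6 had an unadjusted p under 0.05. Their counts summed to 7415, 7200 and 8157 in WT replicates 3, 4 and 8 and to 7715, 7476 and 7144 in KO replicates 4, 5 and 7. The highest sum was in WT replicate 8, the library with the lowest total. Where the mean raw count was at least 100, 13 of 14 such receptor peaks (92.9%) had a highest count under 1.5 times the lowest. The same was so for 3 of 20 receptor peaks elsewhere (15%), for 42 of 124 other peaks at chromosome starts (33.9%) and for 1151 of 25926 other autosomal peaks (4.44%). Their median log2 fold change was -0.22 with TMM scaling and -0.02 with the authors' factors. These regions and the receptor clusters hold near-identical copies among which reads can be shared, so their values are uncertain, and the part of this in the even counts was not tested.

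**Figure D4:**
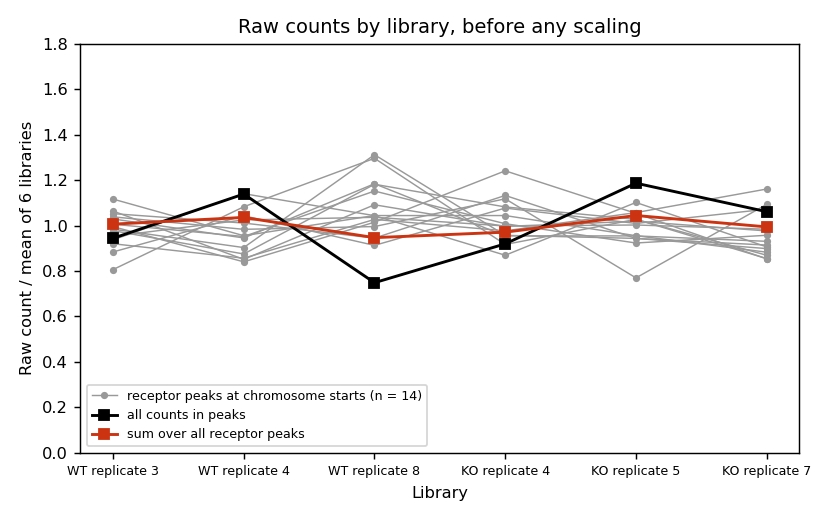
Raw counts in each library divided by the mean of the 6 libraries (vertical axis, no unit), for single receptor peaks at chromosome starts (grey lines) and for summed counts (thick lines). The total in peaks moves between libraries by 1.59 times and the receptor sum by 1.10 times. The sum of receptor peaks outside chromosome starts, not drawn, moves by 1.33 times.

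Over all 194 receptor peaks, the summed raw counts were 16489, 16973 and 15515 in WT and 15910, 17112 and 16291 in KO. As a share of all counts in peaks, this was 0.172%, 0.147% and 0.204% in WT and 0.170%, 0.142% and 0.151% in KO. WT replicate 8 was highest and the groups overlapped, at 0.174% ± 0.0287 in WT and 0.154% ± 0.0145 in KO (SD, n = 3 each). The receptor sum changed by 1.10 times between the highest and the lowest library against 1.59 times for the total. Part of this evenness lay in the peaks at chromosome starts, a group chosen after the values were seen. Their sum changed by 1.14 times, and that of the other receptor peaks by 1.33 times. The 3 libraries with the highest totals had the 3 lowest shares.

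The sign of the median fold change turned on this scaling. With TMM factors, 119 of the 176 tested receptor peaks (67.6%) had a log2 fold change under 0, against 51.2% of all peaks, and their median was -0.19 against -0.01 over all and -0.08 over the other peaks of like distance and signal. With the authors' factors, which move the median of all peaks to 0.19, 87 of 176 were under 0, and the medians were 0.02 for receptor peaks and 0.13 for the like peaks. Those factors differ by 1.06 times between libraries, while total counts in peaks differ by 1.59 times. Relative to all peaks, the receptor median was -0.17 with TMM and -0.17 with the authors' factors, and relative to the like peaks it was -0.11 with both. The difference was smaller without WT replicate 8. The receptor median was then -0.03, or -0.07 relative to all peaks and -0.06 relative to the like peaks, with 98 of 184 tested receptor peaks under 0.

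**Figure D5:**
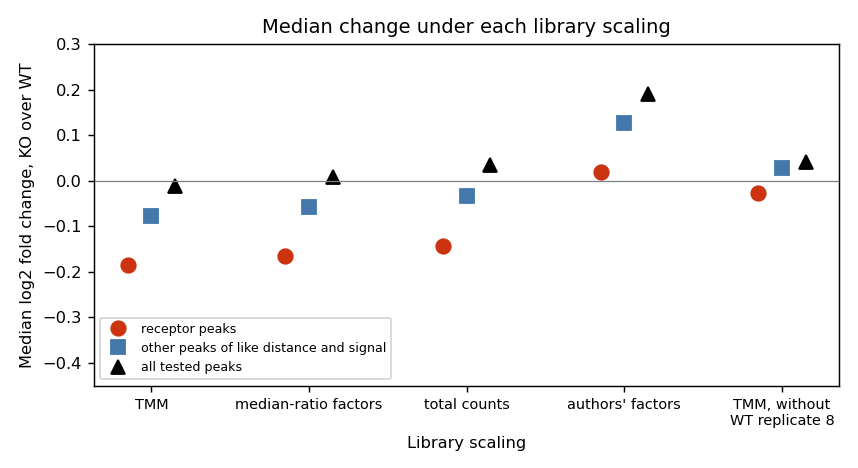
Median log2 fold change of KO over WT (vertical axis) under 5 ways of scaling or choosing the libraries (horizontal axis), for receptor peaks, for other peaks of like distance and signal, and for all tested peaks. The receptor median is the lowest in each, between -0.19 and 0.02, and the gap is smallest without WT replicate 8.

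Calls were spread over the levels of signal. Among the weakest 3 deciles of mean level lay 101 receptor peaks (57.4%), of which 0 rose and 3 fell, where 0.607% of other peaks rose and 1.36% fell. Their median log2 fold change was -0.36 against -0.10 over other peaks of those deciles. In deciles 4 to 7, 2 of 47 rose, both at Olfr1331, and none fell, beside 3.96% and 5.54% of other peaks (median -0.08 against -0.03). In deciles 8 to 10, 3 of 28 fell and none rose, beside 5.14% lower and 3.44% higher of other peaks (median -0.24 against 0.04). The 3 were the stronger pair of Olfr1505 and the stronger Vmn2r7 peak.

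Neighbouring peaks (successive ones within 1 Mb) formed runs. The 3 runs with most calls were picked for their calls, so the number they hold says nothing on whether calls gather. The run of Vmn1r2 and Vmn1r3 on chromosome 4 had 12 tested peaks, none called, with a median log2 fold change of -0.21. On chromosome 19, the run that holds Olfr1505 had 11 tested peaks, 3 of them lower (median -0.33), and on chromosome 3 the run of Vmn2r1 and Vmn2r7 had 7, with 2 lower (median -0.58). The run of Olfr62, Olfr1337, Olfr1331 and Olfr1330 on chromosome 4 had 5 tested peaks, 2 of them higher (median 0.75). Of all tested peaks, 2.77% were higher and 4.23% lower, and whether calls gather in runs was not tested. The Olfr161 run on chromosome 16 had 10 tested peaks and the Olfr267 run on chromosome 4 had 10, none called in either, with medians of -0.18 and -0.13. Olfr267 had 1 peak with an unadjusted p under 0.05.

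Genes that serve odour detection or receptor choice also had peaks in this muscle. Of 20 such genes, 19 had a peak, and of their 122 tested peaks 2 rose and 6 fell (median log2 fold change -0.07). Of all tested peaks, 2.77% were higher and 4.23% lower. No difference from all peaks was tested for this list or the lists that follow, and the peaks named are single calls. None of the 25 promoter peaks was called by edgeR, DESeq2 or limma-voom, and 2 had an unadjusted p under 0.05, where 3.07% of other promoter peaks were called, so no difference from these can be read. The leading peaks that fell lay in an intron of Ric8b, which assists the olfactory G protein (-1.12, SE 0.21, adjusted p = 1.6e-05), 15458 bases from Rtp1, which carries receptors to the membrane (-1.33, SE 0.30, adjusted p = 0.000534), and 10578 bases from the homeobox gene Emx2 (-0.84, SE 0.20, adjusted p = 0.00111). Both peaks that rose were of Gnao1, the G protein alpha subunit of neurons with type 2 vomeronasal receptors. Taste and formyl peptide receptors (names in Tas1r, Tas2r or Fpr) had 32 tested peaks, 0 called by any of the 3 tools, with 4 at an unadjusted p under 0.05 (median -0.06). Of 147 tested peaks matched by name to other clustered families, 3 rose and 1 fell (median -0.10). The 1 that fell was of Cyp27a1, a sterol hydroxylase that the letters Cyp2 match but that is not of the Cyp2 family, and without such genes 3 of 114 rose and 0 fell (median -0.08). The 3 that rose were of Cyp2ab1 (1.44), Scgb3a1 (0.88) and Cyp2f2 (0.81).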

How the data were processed

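The members, lists and tests were chosen with earlier results of these data known. The authors deposited raw counts per peak and library for 1 common list of peaks, with a normalized signal, a log2 fold change, p-values (raw and adjusted) and a score per peak. The deposited signal is the count over a constant of each library, called the authors' factors here. Tools in the submitters' processing notes, without role or order, are MACS2, BWA, Trimmomatic, DESeq2 1.6.3, bedtools and deepTools, with build GRCm38. How reads were counted and shifted for Tn5, and how duplicates and reads with several matches were treated, is not given in the sources used here. Coordinates and distances are as deposited, and gene spans and promoters are from RefSeq (GRCm38.p6), in which all 124 annotated receptor genes were found.

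The counts of all peaks were fitted with edgeR 4.0.16 in R 4.3.3 (TMM, filterByExpr with minimum count 10 and minimum total 15, quasi-likelihood test, two-sided, KO over WT, no covariate), and p-values were Benjamini-Hochberg adjusted over all 73896 peaks tested. A peak was called at an adjusted p under 0.05. The fit was tested on simulated data. Other peaks were weighted over 6 bins of distance and 10 deciles of mean level. Alternatives were DESeq2 1.42.0, limma 3.58.1 voom, other factors, filters and thresholds, the authors' table and leaving out each library.

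Named are all called receptor peaks, the 3 most open, the 3 most open within 1 kb of a start, receptors reported outside the nose, the 3 longest runs and the 3 with most calls, and up to 3 genes of each further list. Olfr12, the peaks beside those called and the group at chromosome starts were chosen after their values were seen.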

Additional observations from a re-analysis of the deposited data

How the results depend on the processing

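The counts of 2 higher and 6 lower receptor peaks stayed within 1.5 times under voom, DESeq2, median-ratio and total-count scaling, no filter and the stricter filter. The lower count moved to 3 with the authors' factors, to 2 in the authors' deposited table and to 2 when only peaks within 100 kb of the start were kept, the last because fewer peaks are members. Leaving out 1 library gave 1 to 3 higher (1 without KO replicate 4, 3 without WT replicate 4 or WT replicate 8) and 4 to 7 lower peaks. The share of like peaks called lower (3.64%) moved to 0.810% with the authors' factors and to 2.25% at an adjusted p under 0.01, and the share called higher (1.94%) to 3.19% with the stricter filter and to 0.995% at 0.01. Without 1 library these shares ran from 0.825% to 2.06% higher and from 1.62% to 3.59% lower. The cause was not tested. The receptor median ran from -0.33 to -0.03 and that of like peaks from -0.15 to 0.03 without 1 library. Among single peaks, Olfr90 ran from -0.16 to 0.77 without 1 library, with -0.026 and -0.093 without WT replicate 3 and WT replicate 4, the lowest without KO replicate 7 and the highest without WT replicate 8. The third most open peak, of Vmn1r238, ran from -0.46 without KO replicate 4 to 0.072 without WT replicate 8. Without WT replicate 8, the 2 Vmn1r2 peaks moved to -0.044 and -0.011. Leaving out the peaks at chromosome starts (2 higher, 6 lower, median -0.18), the median of like peaks and the shorter Cyp2 list were chosen after seeing the data. No paired analysis was possible because KO and WT share only replicate number 4.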
